A study of Homo sapiens with 6 samples.

Results

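Processed pseudogenes are copies of spliced mRNAs that were reverse-transcribed and inserted back into the genome. The regions described here are the rows annotated as processed pseudogenes and selected on their measured level, 1 FPKM (fragments per kilobase of gene length, scaled to the library's depth) or more in at least 3 of 6 RNA-seq libraries. The rule took 338 of the 10191 processed pseudogenes in a table of 58735 genes, of which 12258 genes of all kinds passed the same limit and were tested. The libraries came from A375, an established human malignant melanoma cell line, and poly-A enriched RNA was sequenced. PAL, the treated group, is a Ringer's lactate solution activated by low-temperature plasma, and 3 libraries were labelled PAL and 3 control. No genotype or strain differs between the groups, and dose, exposure time, culture conditions and whether replicates came from separate cultures were not given in the sources used here, so p-values measure a spread between libraries that may be technical. The column names of the PAL libraries also hold a 64, of unstated meaning.

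A processed pseudogene usually lacks the introns and the promoter of its source gene, here called the parent, and lands far from it. Most carry changes that break the reading frame, and a transcript is made only where the copy sits near a promoter or inside another transcribed gene. Abundant housekeeping mRNAs, those of ribosomal proteins above all, have left the most copies in the human genome. Because a copy can be nearly identical to its parent's mRNA, a short read can match both, and the rule that assigned reads with several matches was not given in the sources used here.

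Copies are printed below beside their parents to show how the 2 sequences align in a short stretch. Each pair shows 120 bases of coding sequence, read from GENCODE release 29 transcripts, with 60 bases on either side of an exon junction of the parent. Capitals mark the bases that differ between the copy and the parent, and positions are in hg38. The junction was the first with 60 coding bases aligned without a gap on either side. In all 5 pairs the copy therefore runs through the junction without the intron, as this choice required. Such a stretch can be closer than the whole copy. Over the best alignment HSPD1P1 was 97.4% identical to HSPD1, with 41 mismatches, and NAMPTP1 97.6% identical to NAMPT, with 18. HSPD1P1, at chr5:21882958-21883077 on the plus strand, differed from HSPD1, the mitochondrial chaperonin HSP60, at 1 base, where the parent holds an intron of 1763 bases between exons 3 and 4.
HSPD1P1: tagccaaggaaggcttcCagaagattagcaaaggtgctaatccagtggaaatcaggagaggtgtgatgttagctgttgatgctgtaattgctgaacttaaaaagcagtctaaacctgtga
HSPD1: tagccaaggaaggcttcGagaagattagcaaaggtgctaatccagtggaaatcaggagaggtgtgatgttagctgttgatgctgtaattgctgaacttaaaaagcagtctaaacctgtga
HSP90AA2P, at chr11:27890812-27890931 on the minus strand, differed at 1 base from HSP90AA1, the inducible cytosolic HSP90, across the junction of exons 2 and 3.
HSP90AA2P: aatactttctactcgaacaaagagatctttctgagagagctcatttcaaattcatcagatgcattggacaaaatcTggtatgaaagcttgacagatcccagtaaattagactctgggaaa
HSP90AA1: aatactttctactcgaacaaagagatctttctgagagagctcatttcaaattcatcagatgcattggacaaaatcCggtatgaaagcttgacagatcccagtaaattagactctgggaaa
NAMPTP1, at chr10:36524018-36524137 on the minus strand, had no difference in the stretch from NAMPT, the rate-limiting enzyme of the NAD salvage pathway, so 1 line stands for both.
NAMPTP1 and NAMPT: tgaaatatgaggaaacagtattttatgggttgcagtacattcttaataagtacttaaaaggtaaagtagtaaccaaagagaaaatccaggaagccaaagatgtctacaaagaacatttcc
TUFMP1, at chr17:27083572-27083691 on the minus strand, differed at 10 bases from TUFM, the mitochondrial translation elongation factor Tu, across the junction of exons 3 and 4.
TUFMP1: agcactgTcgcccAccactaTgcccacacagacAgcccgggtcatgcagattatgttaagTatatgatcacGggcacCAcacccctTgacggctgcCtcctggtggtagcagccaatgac
TUFM: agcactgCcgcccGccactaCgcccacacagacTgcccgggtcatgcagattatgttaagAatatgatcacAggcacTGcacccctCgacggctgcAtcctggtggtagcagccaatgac
AC093591.3, at chr4:127809231-127809350 on the plus strand, has no parent in its name and matched INIP, a subunit of a single-stranded DNA binding complex, best by sequence, with 5 differences.
AC093591.3: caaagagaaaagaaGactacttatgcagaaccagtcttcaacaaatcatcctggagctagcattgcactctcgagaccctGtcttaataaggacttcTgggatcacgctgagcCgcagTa
INIP: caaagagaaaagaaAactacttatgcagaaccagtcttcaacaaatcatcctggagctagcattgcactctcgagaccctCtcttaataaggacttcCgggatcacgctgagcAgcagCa

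In the best local alignment of their transcripts the copies were close to their parents, and in the median pair it covered 100% of the copy. The stem of the name before the final P and number gave a parent for 219 of the 338 members, 218 as spelled and 1 by an older symbol (SETD8P1, from KMT5A), and the other 119 names hold no such stem or parent. Those 219 members came from 161 parents, and 38 parents with a tested level had 2 or more members. Percent identity to the parent had a median of 98.2% and ran from 70.5% to 100%, with 190 pairs at 95% or above and 13 at 100%. The stem's parent was also the best match of the transcript by blastn in 217 of the 219. In the median member 53.2% of all windows of 50 bases occurred unchanged in the transcripts of another gene. This share was 100% in 26 members and 0 in 14. Reads from the 26 cannot be told apart from reads of another gene at that length, and the read length was not given either.

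The members were short and low. Their length had a median of 570.5 bases (75 to 6821), 333 of them had 1 exon and 5 had 2, and they lay on 24 chromosomes. The mean level per member had a median of 3.56 FPKM against 6.18 over all genes tested, and the median member had 40.6 reads per library against 504. Depth was 15064971 to 17711389 assigned reads per library, and the members held 0.380% to 0.389% of them in control and 0.391% to 0.403% in PAL. Of the 338, 257 reached 1 FPKM in all 6 libraries, 72 in libraries of both groups but not all 6, and 9 in control libraries alone. Just inside the limit lay CTBP2P4, AL391058.1 and TMPOP2, whose third-highest library stood at 1.003, 1.004 and 1.012 FPKM. Just outside lay AC007842.1, AL596087.1 and AC004987.2, at 0.999, 0.995 and 0.991 FPKM.

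The label of the cells was checked against markers of cell types. Of 8 markers of the melanocyte lineage, 3 were tested, led by SOX10, the neural crest transcription factor, at 86.4 to 108 FPKM, while TYR had 0 reads and MLANA, DCT, PMEL and TYRP1 stayed under 1 FPKM. The summed level of the list was 93.8 to 98.0 FPKM in control and 113.6 to 114.8 in PAL, and its part in the results was not tested. Leukocyte and endothelial markers summed to under 1 FPKM in every library, the highest sum being 0.115, 1 of 4 fibroblast markers (LUM) was tested, and 2 of 4 keratinocyte markers (KRT10 and KRT14) were, with sums of 31.5 to 36.4 in control and 30.9 to 33.4 in PAL. HSPA1A, an inducible HSP70, stood at 1364, 1414 and 1379 FPKM in the control libraries and at 48.8, 51.7 and 95.4 in PAL. No gene was targeted in this design, so no gene checks the labels, and whether they were exchanged was not tested.

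PAL was set against control to ask which pseudogene transcripts differ with the treatment. By limma on log2(FPKM + 1) over all genes tested, at an adjusted p under 0.05, which is what called means below, 44 of the 338 members were called, or 13%, against 25.9% of all 12258 genes tested. Of these, 33 members were lower in PAL (9.76%, against 14.5% of all genes) and 11 higher (3.25%, against 11.4%). The split of 11 higher to 33 lower moved with the scaling of the libraries: it was 18 to 27 as TPM, 18 to 29 after quantile normalization and 24 to 26 with plain read totals. The median change of the members was -0.07 on the log2 scale and that of all genes tested 0.00. The median standard error was 0.12 per member against 0.06 over all genes, so a member's change was measured less precisely. In such bulk libraries fewer cells that make a transcript and less of it per cell cannot be told apart.

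The filter itself favours falls in a part of the list. Of the 9 members that passed through control libraries alone, 8 were called and all 8 were lower, a direction this way of passing favours, so they are no support for it. RPS10P3, RAB43P1 and BANF1P3, which were called lower, also did not reach 1 FPKM in all 6 libraries. The filter may have favoured their falls too. Among genes at 1 FPKM or more in all 6 libraries, tested on their own, 31 of 257 members were called (12.1%, 23 lower and 8 higher) against 27.8% of 11089 genes. The groups did not overlap for 66 members, or 19.5% (48 lower and 18 higher), against 44.9% of all genes tested. The share called also depended on reads. With under 20 reads per library 17.8% of members and 15.2% of all genes were called, and with 1000 reads or more 2 of 14 members, or 14.3%, and 35.1% of all genes. In the 3 classes between, the members' share was 10.5%, 9.09% and 13.2% and that of all genes 15.4%, 17.6% and 25.3%. Of 39 transcribed processed pseudogenes 15.4% were called, 7.69% higher and 7.69% lower. Of 62 unprocessed ones 14.5% were called, 4.84% higher and 9.68% lower, and of 102 transcribed unprocessed ones 16.7%, 8.82% higher and 7.84% lower. Of protein-coding genes 27.7% were called.

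**Figure D1:**
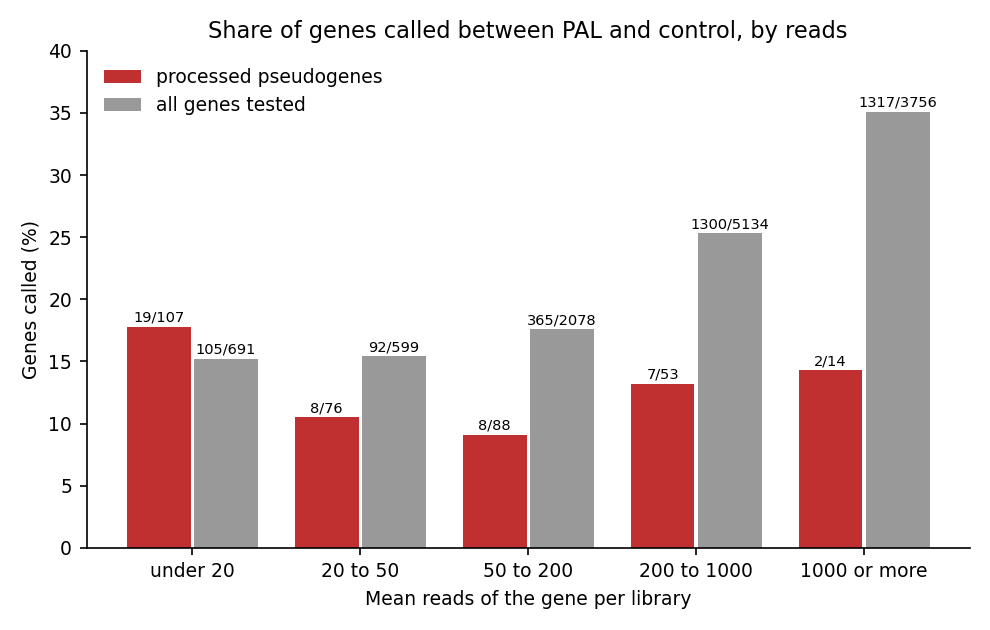
Percent of genes called between PAL and control (vertical axis) in 5 classes of mean reads per library (horizontal axis), for processed pseudogenes (red) and all genes tested (grey), with called and total numbers above the bars. The share rises with reads among all genes, from 15.2% to 35.1%, while that of the pseudogenes stays between 9.09% and 17.8%.

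HSPD1P1, HSP90AA2P and HSP90AB3P, 3 copies of heat shock genes, were lower in PAL together with their parent or best match. HSP60 and the HSP90 proteins are chaperones that fold other proteins and are made in larger amounts under stress. HSPD1P1 stood at 9.66, 12.3 and 11.1 FPKM in control and 7.50, 6.46 and 8.33 in PAL. Every PAL library lay below every control library, and the fall was 0.51 ± 0.11 (SE) on the log2 scale (limma adjusted p = 0.0135). With no filter on low genes the call was lost (limma adjusted p = 0.0518). HSPD1 fell with it, from 460.1 ± 23.2 (SD, n = 3) to 289 ± 6.29 FPKM, a log2 change of -0.67. The ratio of copy to parent changed by 0.15 ± 0.11 (SE), and the exact two-sided permutation test over the 6 libraries gave p = 0.2, where 3 libraries against 3 cannot go below 0.1. HSP90AA2P, whose name gives no parent by the rule, had 7.45, 7.16 and 8.996 FPKM in control and 3.56, 3.96 and 5.02 in PAL. It fell by 0.78 ± 0.12 (SE) on the log2 scale, and its best match HSP90AA1 fell by 0.86, from 1300.4 ± 16.3 to 716 ± 27.4 FPKM. HSP90AB3P had 4.04, 4.04 and 3.92 FPKM in control and 2.78, 2.23 and 2.50 in PAL, without overlap, and its best match HSP90AB1, the constitutive cytosolic HSP90, went from 1333 ± 11.4 to 1023 ± 6.32 FPKM. Of these copies, 24.1% of the 50-base windows of HSPD1P1 occurred in HSPD1, 20.4% of those of HSP90AA2P in any other gene and 19.96% of those of HSP90AB3P in any other gene.

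The rest of the chaperone group was less clear. Of its 11 members, by name or sequence, 3 were called, each lower, against 25.9% of all genes called either way and 14.5% lower, and the median change was -0.35. By name, 3 of its 7 pairs shared the sign of the parent. HSPE1P2, a copy of the HSP10 co-chaperonin gene HSPE1, had 5.16, 3.53 and 7.38 FPKM in control and 4.09, 1.17 and 1.42 in PAL, from as few as 6 reads. Its groups overlapped and it was not called (log2 change -1.04, limma adjusted p = 0.0706), while HSPE1 was, from 78.6 ± 3.93 to 55.4 ± 1.30 FPKM. DNAJC8P1, from a J-domain splicing factor gene, was not called either, at a mean of 2.20 in control and 1.54 in PAL. Copies of PPIA, the abundant prolyl isomerase cyclophilin A, were not called, with changes from -0.25 (PPIAP11) to 0.34 (PPIAP31).

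Across all pairs the question was whether a pseudogene's change follows its parent's. Of the 219 members with a parent, 211 had a parent that was tested (153 parents), and 34 of those parents were called (22.2%, 10 higher and 24 lower). Both were called in the same direction in 6 pairs and in opposite directions in 4. These counts rest on single libraries and on the scaling: without any single library except control replicate 3 there was 1 opposite pair, and the pairs in the same direction became 11 as TPM, 13 with quantile normalization and 15 with plain read totals. With all libraries and the scaling used throughout, the member alone was called in 14 pairs, the parent alone in 31 and neither in 156. The sign was the same in 124 of 211 pairs, and in 26 of the 41 pairs whose parent was called. Spearman's rho between the 2 changes was 0.18 and Pearson's r 0.21 over 211 pairs, which share libraries and in part a parent, and rho was 0.23 with 1 value per parent. Without PAL replicate 2 rho was 0.101 and without PAL replicate 1 it was 0.120. It was 0.325 over the 93 pairs whose member had 50 reads or more in every library and 0.38 where the parent was called. The median size of change was 0.14 for the member and 0.05 for the parent. The latter is smaller than the shift of 0.07 that plain read totals or TPM give all genes, so the sign of many parents can depend on scaling. Of the 12 pairs whose parent was called with a change of 0.2 or more, 10 shared the sign, and in 3 the member was called in that direction. In 11 of these 12 the parent fell, and 126 of all 338 members had a positive change.

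**Figure D2:**
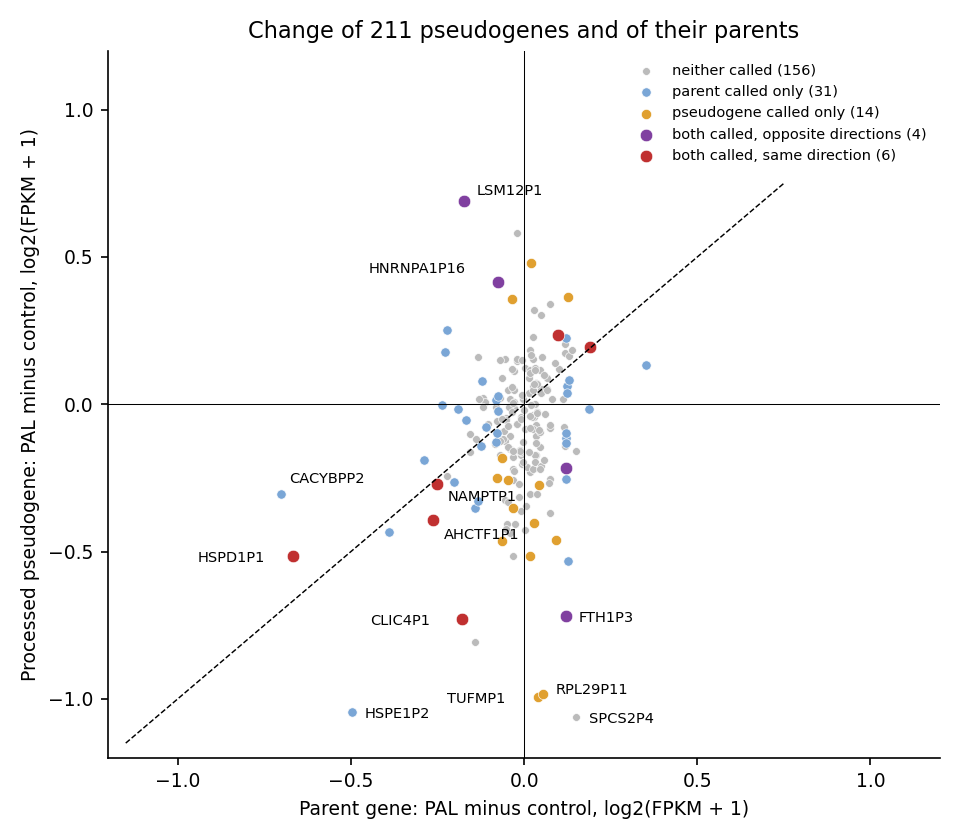
Change of each of 211 pseudogenes (vertical axis) against that of its parent (horizontal axis), both PAL minus control on the log2(FPKM + 1) scale, coloured by which of the pair was called; the dashed line marks equal change. Most pairs form a vertical band because parents changed little, with the heat shock copies HSPD1P1 and HSPE1P2 at lower left and TUFMP1, RPL29P11 and SPCS2P4 at the bottom near the axis.

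Of the 6 pairs called in one direction, 4 fell. NAMPTP1 had 7.14, 7.49 and 7.601 FPKM in control and 6.14, 5.72 and 6.05 in PAL, and NAMPT went from 17.4 ± 0.302 to 14.4 ± 0.341. Their changes of -0.27 and -0.25 were nearly equal, with a ratio change of -0.02 ± 0.04 (SE, exact permutation p = 0.6). AHCTF1P1, the longest member at 6821 bases, had 3.12, 3.35 and 3.44 FPKM in control and 2.18, 2.20 and 2.45 in PAL. Its parent AHCTF1, which encodes the nuclear pore protein ELYS, fell by 0.26 where the copy fell by 0.39, and the ratio did not overlap between groups. CLIC4P1 had 2.60, 1.89 and 2.90 FPKM in control and 0.813, 1.57 and 0.913 in PAL, and CLIC4, an intracellular chloride channel protein, went from 108 ± 0.212 to 95.1 ± 2.00. The call of CLIC4P1 was lost without PAL replicate 1 or 3 or control replicate 1 or 3, with limma adjusted p of 0.0518 to 0.0599.

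Of the 2 pairs that rose, both ribosomal, 1 is described here. RPL13P12, with 34.3, 34.2 and 36.9 FPKM in control and 42.6, 41.1 and 41.0 in PAL, rose by 0.24 where RPL13 rose by 0.10. The call of RPL13 was lost when PAL replicate 1 or 2 or control replicate 1 or 2 was left out, at limma adjusted p of 0.0690 to 0.0967.

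Matching by sequence in place of the name added members that have no stem. It gave 317 pairs, of which 10 were called in the same direction, 5 in opposite directions, and 178 had the same sign. Beside the 2 HSP90 copies, the added pairs were AC011497.2 with ZFAND5 and FAM3C2 with FAM3C. AC011497.2, at chr19:42485076-42485714, had 4.15, 4.12 and 3.54 FPKM in control and 0.766, 1.88 and 1.95 in PAL. ZFAND5, a ubiquitin-binding zinc finger protein, went from 30.2 ± 1.56 to 19.2 ± 0.477 FPKM, and 92.5% of the copy's windows occurred in another gene. In AC011497.2, 78.1% of the span also lies in exons of LIPE-AS1 on the opposite strand. FAM3C2 shared every window with another gene and had 9.28, 11.9 and 13.9 FPKM in control and 6.47, 9.41 and 6.78 in PAL, with overlap. Its call was lost without PAL replicate 1 or 3 or control replicate 2 or 3 (limma adjusted p of 0.110 to 0.132), and that of FAM3C without any single library except control replicate 3 (0.0503 to 0.0849). The added opposite pair was AL021068.2 with MT-ATP8, an ATP synthase subunit gene of the mitochondrial genome. Whether AL021068.2 arose from an mRNA of that gene was not tested. MT-ATP8 went from 157 ± 5.50 to 173 ± 8.03 FPKM. It lost its call without PAL replicate 1 or 2 or control replicate 1 or 2 (0.118 to 0.138).

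Copies of FTH1, the gene of the heavy chain of the iron store ferritin, had the opposite sign to their parent. FTH1 rose from 1565 ± 16.2 to 1701 ± 57.5 FPKM, a log2 change of 0.12, while all 5 of its pseudogenes had lower means in PAL, with changes from -0.10 (FTH1P23) to -0.72 (FTH1P3). FTH1P3 had 1.19, 1.73 and 1.22 FPKM in control and 0.652, 0.410 and 0.279 in PAL, which is 11 to 15 reads against 3 to 7. It passed the limit through control libraries alone. FTH1P8 had 5.29, 5.52 and 4.90 FPKM in control and 4.23, 4.55 and 4.33 in PAL, and the ratio to FTH1 changed by -0.33 ± 0.05 (SE, exact permutation p = 0.1). The calls of FTH1P8 and of FTH1 were lost in 5 and 4 of the 6 fits that left out 1 library: FTH1P8 without any but control replicate 3 (limma adjusted p of 0.0540 to 0.0877), and FTH1 without PAL replicate 2 or 3 or control replicate 1 or 2 (0.0596 to 0.0785).

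The other 2 opposite pairs were LSM12P1 and HNRNPA1P16. LSM12P1 had 23.9, 15.3 and 18.3 FPKM in control and 30.6, 28.6 and 34.1 in PAL, while LSM12, an RNA-binding protein of the Sm-like family, went from 15.9 ± 0.576 to 13.96 ± 0.282. The 588 bases of this copy are identical to LSM12, so their reads cannot be told apart by sequence in windows of 50 bases, yet the 2 rows moved apart by 0.86 ± 0.22 (SE, exact permutation p = 0.1). The call of LSM12P1 was lost without both libraries numbered 3 and with no filter on low genes (limma adjusted p = 0.0963 and 0.0604). That of LSM12 was lost without PAL replicate 1 or control replicate 2 (limma adjusted p = 0.0596 and 0.0560), as TPM (0.0645), with plain read totals (0.0849) and without both libraries numbered 3 (0.0720). HNRNPA1P16 had 1.26, 1.56 and 1.55 FPKM in control and 2.05, 2.70 and 2.10 in PAL, and 29.5% of its span lies in exons of SRR on the same strand. HNRNPA1, a splicing regulator, went from 493 ± 9.15 to 468 ± 3.14 FPKM, a change of -0.07 that turned to 0.01 with plain read totals and 0.06 after quantile normalization, neither called. Its call was lost without any single library except control replicate 3 (limma adjusted p of 0.0815 to 0.139), and that of HNRNPA1P16 without PAL replicate 2 or control replicate 1 (0.0599 and 0.0625).

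Among copies called without their parent, TUFMP1 had the lowest adjusted p. It had 3.42, 3.06 and 3.21 FPKM in control and 1.05, 1.16 and 1.17 in PAL, or 61 to 73 reads against 26 to 29, a mean 2.87 times higher in control. The fall was 0.99 ± 0.06 (SE) on the log2 scale (limma adjusted p = 0.000109), while TUFM stood at 206 ± 3.59 and 212 ± 1.54 FPKM and was not called. The ratio fell by 1.03 ± 0.04 (SE), with no overlap and the smallest exact p that 3 against 3 allow, 0.1. Identity was 92.2%, 2.08% of its windows lay in TUFM, and no gene of the table overlaps it. UBE2FP1, a copy of a NEDD8-conjugating enzyme gene with no window in any other gene, fell from 8.62, 8.15 and 8.09 FPKM to 4.62, 6.30 and 5.71, while UBE2F was not called (1.67 ± 0.0645 and 1.71 ± 0.326).

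The ratio of copy to parent did not overlap between groups in 36 of 211 pairs, or 17.1%, lower in 25 and higher in 11. The count was 58 without PAL replicate 2, 66 without control replicate 1 and 57 without control replicate 2, where fewer libraries make separation easier. By size, the lowest changes of the ratio among pairs with at least 2 FPKM on both sides were those of SPCS2P4, TUFMP1, PHKA1P1, PFN1P1 and HSPE1P2, and of these TUFMP1 was called. SPCS2P4, from a subunit of the signal peptidase, had 27.6, 9.42 and 26.7 FPKM in control and 15.3, 6.25 and 6.70 in PAL, so the groups overlapped (limma adjusted p = 0.136). PHKA1P1 had 3.05, 6.20 and 4.16 FPKM in control and 1.31, 2.12 and 2.88 in PAL, without overlap, and was not called (limma adjusted p = 0.0534). PFN1P1, a copy of the actin-binding profilin gene, had 9.41, 9.26 and 10.2 FPKM against 5.27, 9.35 and 5.13 and was not called. The highest were LSM12P1, RPS23P8, TMSB4XP8, PPIAP31 and GAPDHP14, of which the first 2 were called. RPS23P8, with 4.40, 5.32 and 5.87 FPKM in control and 6.92, 6.72 and 9.38 in PAL, kept its call only without control replicate 3 among the fits that left out 1 library, the others giving limma adjusted p of 0.0562 to 0.10.

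**Figure D3:**
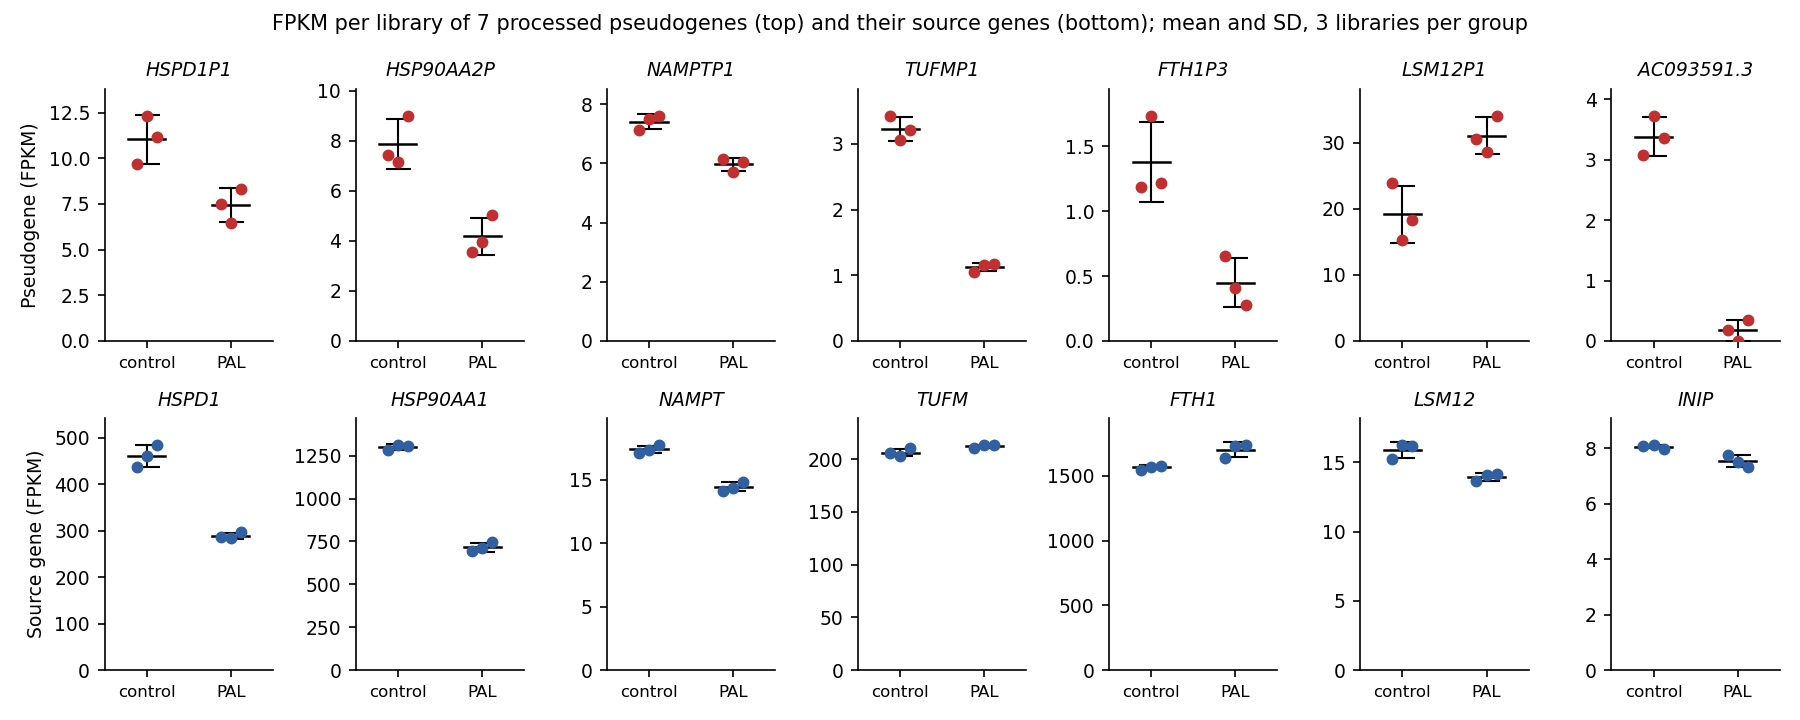
FPKM per library of 7 pseudogenes (top row, red) and of their parents or best sequence matches (bottom row, blue), in control and PAL, each axis from 0, with the mean and SD of 3 libraries in black. HSPD1P1, HSP90AA2P and NAMPTP1 move with the gene below them, TUFMP1 and AC093591.3 fall while TUFM and INIP differ little, and FTH1P3 and LSM12P1 move against theirs.

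Copies of ribosomal protein genes formed the largest family, with 103 members from 54 genes and 51.8% to 54.9% of all member reads. By name alone they were 58 of 219 members (26.5%), where ribosomal names make up 21.4% of the 5093 annotated processed pseudogenes with a stem. In this family 3 members were called higher and 7 lower, against 11.4% and 14.5% of all genes, and the median change was -0.04, less than the shift of 0.07 that scaling by plain read totals or as TPM gives all genes. RPS2P5, the member with the highest level, had 395, 403 and 456 FPKM in control and 444, 444 and 417 in PAL, with overlap and no call, while RPS2 was called higher (924 ± 28.7 and 1006 ± 22.1). The next 2 were AC116533.1 (best match RPL36A, identity 100%) and AC005912.1 (best match RPS27). They were not called, at means of 333 and 234 FPKM in control and 320.0 and 241 in PAL. RPL36A itself was listed far below its copy, at means of 1.07 FPKM in control and 1.48 in PAL. RPS27 stood above its copy, at 702 and 707 FPKM. The 10 highest members together held 34.5% to 36.02% of member reads, and of them 1 was called higher and 1, EEF1A1P5, lower.

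Among the falls in the ribosomal family, RPL29P11 and AL031727.1 were the largest, both from few reads and both past the limit through control alone. RPL29P11 had 13, 11 and 8 reads in control and 3, 0 and 3 in PAL, or 1.67, 1.51 and 1.05 FPKM against 0.331, 0 and 0.331. AL031727.1, closest to RPS14, had 12, 18 and 11 reads against 3, 5 and 3. RPL29 and RPS14 themselves were not called. AC011979.1 (best match RPL21) went from 3.04 ± 0.715 to 1.40 ± 0.310 FPKM, a log2 change of -0.74. The called falls of RPS3AP6, RPS10P3, AC078817.1 and AC016596.1 were each lost in 3 to 5 of the 6 fits without 1 library: RPS3AP6 without PAL replicate 2 or 3 or control replicate 1 (limma adjusted p of 0.0544 to 0.0766), RPS10P3 without PAL replicate 1 or 3 or control replicate 2 or 3 (0.0666 to 0.0782), AC078817.1 without PAL replicate 1 or 3 or control replicate 1 or 3 (0.0774 to 0.109), and AC016596.1 without any but PAL replicate 1 (0.0568 to 0.136).

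Pseudogenes of translation factors had 3 called members among 16, each lower, near the 14.5% of all genes called lower. EEF1A1P5, a copy of the elongation factor 1A gene, stood at 194, 189 and 185 FPKM in control and 161, 167 and 171 in PAL, with no overlap (log2 change -0.18 ± 0.03 SE, limma adjusted p = 0.00737). EEF1A1P13 fell from 2.59 ± 0.219 to 1.61 ± 0.201, a change of -0.46. EEF1A1 itself went from 1549 ± 34.3 to 1483 ± 26.2 FPKM and was not called, and EEF1A1P6 changed by -0.05 without a call. EIF4BP6 went from 3.53 ± 0.501 to 2.54 ± 0.188 FPKM and EIF4B from 122 ± 3.82 to 119.7 ± 0.971, and the call of EIF4BP6 was lost without any PAL replicate or control replicate 2 (limma adjusted p of 0.0569 to 0.0792). The sign matched the parent's in 15 of 15 pairs of this family, over 10 parents, of which none was called. The median change of these parents, -0.02, was smaller than the shift of 0.07 that scaling gives all genes. In the other families the sign matched in 26 of 57 ribosomal pairs, 9 of 16 of HMG and histone genes and 8 of 15 of RNA-binding genes. It matched in 5 of 11 of iron and mitochondrial genes, 5 of 7 of ubiquitin and proteasome genes, 2 of 5 cytoskeletal pairs and 4 of 4 glycolytic ones. Among pairs outside all named families it matched in 47 of 74.

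Calls in the other families stand beside 25.9% of all genes tested, 11.4% higher and 14.5% lower, and 13% of all members. HMG and histone proteins had 1 of 17 members called, HMGN2P5, with 50.7, 44.8 and 48.0 FPKM in control and 40.4, 31.2 and 36.6 in PAL, while HMGN2, a nucleosome-binding protein, was not called at 291 ± 4.71 and 297 ± 7.80. All windows of HMGN2P5 occur in another gene, and its call was lost without control replicate 1 (limma adjusted p = 0.0600). Copies of RNA-binding and splicing genes had 1 rise (HNRNPA1P16) and 1 fall (AL391058.1, which passed through control alone and lost its call without PAL replicate 1 or 2 or control replicate 1 or 2, limma adjusted p of 0.0849 to 0.101) in 20 members. There was 1 fall (UBE2FP1) among 11 copies of ubiquitin and proteasome genes while changes of the 7 cytoskeletal copies ran from -0.53 to 0.35 and those of the 6 glycolytic copies from -0.16 to 0.30. Iron and mitochondrial genes had 1 rise and 2 falls in 14. The rise was COX6A1P2, a copy of a cytochrome c oxidase subunit gene, at 7.66, 7.77 and 7.63 FPKM in control and 9.55, 10.5 and 10.5 in PAL, where COX6A1 was not called (48.8 ± 2.60 and 53.3 ± 2.94), and the copy lost its call with voom (limma adjusted p = 0.132).

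**Figure D4:**
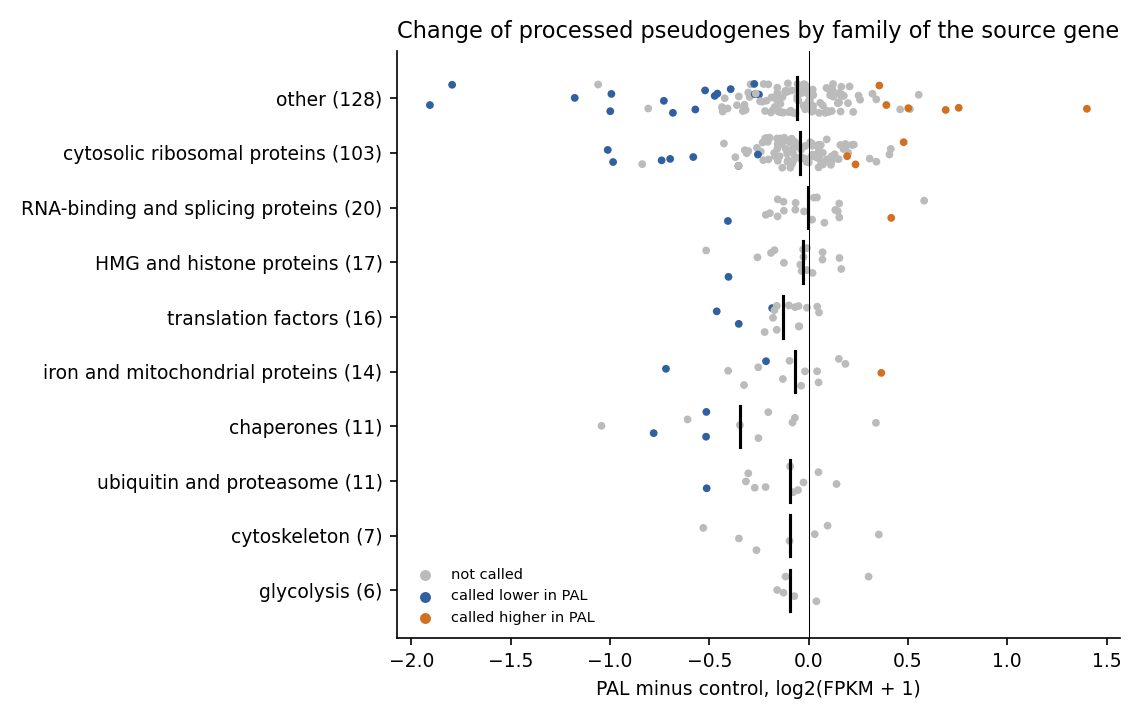
Change of each pseudogene (horizontal axis, PAL minus control, log2(FPKM + 1)) by family of the source gene (rows, member number in parentheses), coloured by call, with the median as a black bar; the 5 members with no sequence match are left out. Chaperone copies have the lowest median, -0.35, and the ribosomal row of 103 members centres on -0.04.

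The 2 largest falls, those of AC093591.3 and of AL021068.2, which is described further below, lay in copies inside other genes. Of the members, 193 lie within the span of another gene, 76 on its strand and 117 on the opposite strand, 140 overlap no gene and 5 overlap one in part. In 169 of the 193 no base falls in an exon of the host. AC093591.3 lies in an intron of HSPA4L, an HSP110-family chaperone, on the same strand. It had 3.08, 3.73 and 3.35 FPKM in control and 0.177, 0 and 0.352 in PAL, from 15, 17 and 16 reads against 1, 0 and 2. The change was -1.91 ± 0.12 (SE, limma adjusted p = 0.000113), HSPA4L went from 5.09 ± 1.40 to 1.73 ± 0.0296 FPKM (-1.13), and INIP was not called at 8.06 ± 0.0645 and 7.53 ± 0.221. AC084880.1 lies in HSPB8, a small heat shock protein, on the same strand, and had 2.09, 1.86 and 5.09 FPKM in control and 0.299, 0.989 and 0.797 in PAL. HSPB8 went from 20.4 ± 1.99 to 5.98 ± 0.352 FPKM, while the best match PDAP1 stood at 106 ± 2.79 and 110.0 ± 4.50. The call of AC084880.1 was lost without any 1 of the PAL replicates (limma adjusted p of 0.0588 to 0.0898). Both copies passed the limit through control libraries alone, as did AL021068.2.

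AL021068.2, a copy of 100 bases in SLC19A2, a thiamine transporter gene, had 8, 2 and 3 reads in control and 0 in each PAL library. Its pooled level in control was 5.03 times a floor of 3 reads over the PAL group. This ratio leaves out the error of the control count and any spread between libraries, so it is no lower limit. The copy also passed the limit through control alone, which favours a fall. SLC19A2, on the same strand, went from 7.49 ± 0.635 to 5.10 ± 0.363 FPKM. CLIC4P1 lies in LINC01239, a long noncoding RNA on the same strand, which went from 4.13 ± 0.271 to 2.95 ± 0.510 FPKM. That call was lost without PAL replicate 1 or 2 or control replicate 1 or 2 (limma adjusted p of 0.0713 to 0.0839).

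Over the 98 members in a tested host, rho between the changes of member and host was 0.20 for 48 on the host's strand and -0.01 for 50 on the opposite strand, as a description over points that share libraries. Without the members that passed the limit through control alone, left out after seeing the data, it was 0.09 over 42 and 0.02 over 49. Among the 48, 11 members and 13 hosts were called, where 13% of all members and 25.9% of all genes tested were called. Both were called in the same direction in 4 (AC093591.3, AC084880.1, AL021068.2 and CLIC4P1) and in opposite directions in 1. The first 3 of these 4 copies passed through control alone, so their falls were favoured before testing and are no support for a shared direction. Among the 50, 5 members and 11 hosts were called. Both were called in the same direction in 1, AC016596.1 in IL6ST, and in opposite directions in 0. On the host's strand, a read from its intron and a read from a copy there cannot be told apart by strand. Use of strand in counting was not given in the sources used here, so on the opposite strand they may not have been separated either. The ratio of copy to host overlapped between groups for AC084880.1, CLIC4P1 and AC016596.1. It was lower in PAL without overlap for AC093591.3 (-0.77 ± 0.22, SE) and AL021068.2 (-1.32 ± 0.43), each with exact permutation p = 0.1. Both of these copies passed through control alone, which favours that direction.

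**Figure D5:**
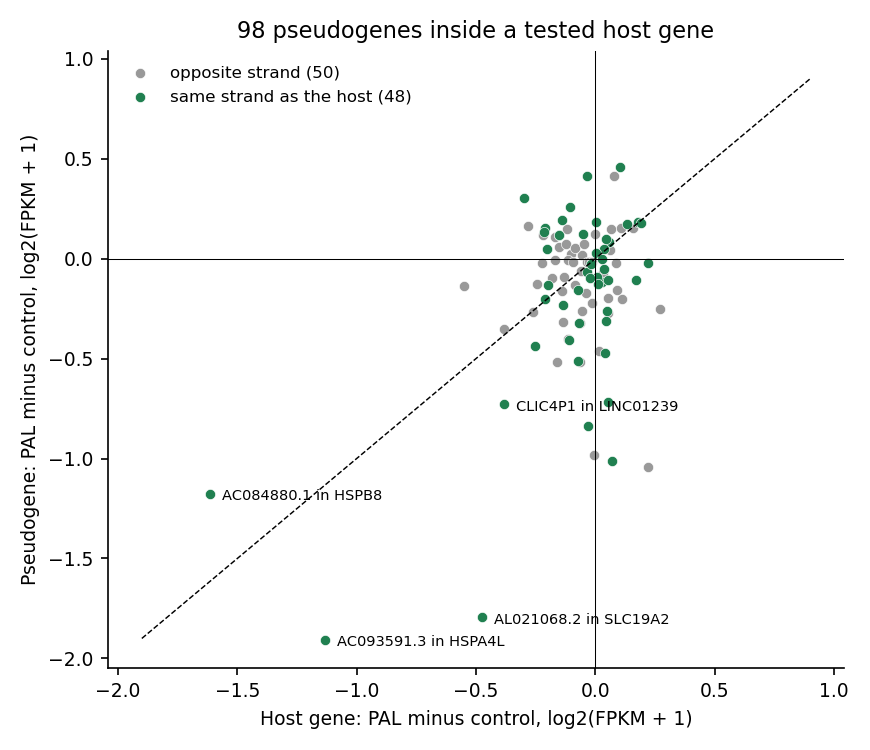
Change of 98 pseudogenes (vertical axis) against that of the host gene around them (horizontal axis), PAL minus control on the log2(FPKM + 1) scale, green for the host's strand and grey for the opposite; the dashed line marks equal change. AC093591.3, AC084880.1 and AL021068.2 stand apart at the bottom, each in a host that was lower in PAL and each past the limit through control libraries alone.

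The level of a copy was only weakly related to that of its parent. A member stood at a median of 6.34% of its parent's FPKM (quartiles 1.51% and 20.2%), and rho between the 2 levels was 0.20 over 211 pairs. Copies that shared more 50-base windows with the parent stood nearer to it: the median was 2.03% with under 25% of windows shared, 1.87% with 25% to 50%, 13.8% with 50% to 75% and 19.2% above. The share of pairs with the same sign of change was 51.9%, 52.5%, 68.5% and 63.6% in these 4 classes, of 52, 61, 54 and 44 pairs, and the median reads per member rose from 24.1 to 140.4 across them. In 14 of these pairs, matched by name, the copy stood above its parent. EIF4A1P10 at 28.7 FPKM stood at 1242% of EIF4A1, a helicase of translation initiation listed at 2.31, and 48.6% of the exon bases of EIF4A1 lie in exons of another gene on its strand. HMGB1P6 had 128, 132 and 126 FPKM in control and 121, 133 and 137 in PAL, and HMGB1, a chromatin protein, averaged 122.

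Of the 8 members whose parent was not tested, RPS10P3 and RAB43P1 were called lower and RARRES2P8 higher. None of these called members reached 1 FPKM in every library, and a member that passes through control alone is favoured to fall. RPS10 averaged 0.695 FPKM with 39.4% of its exon bases in another gene on the strand, and RAB43 0.342 FPKM with 79.3%. RARRES2 had 0 reads in all libraries, while its copy RARRES2P8 had 1.21, 0.920 and 0.880 FPKM in control and 1.33, 1.63 and 1.92 in PAL. The call of RARRES2P8 was lost without PAL replicate 2 or 3 or control replicate 2 or 3 (limma adjusted p of 0.0969 to 0.107), and that of RAB43P1 without PAL replicate 1 or control replicate 1 or 3 (0.0563 to 0.0667).

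Falls outside these families included SERBP1P5, Z83840.1, RTN3P1 and BANF1P3. SERBP1P5, from an mRNA-binding protein gene, went from 10.7 ± 1.03 to 8.82 ± 0.355 FPKM and lost its call without any PAL replicate or control replicate 2 (limma adjusted p of 0.0539 to 0.0923). Z83840.1, closest to LLPH, went from 2.91 ± 0.557 to 1.81 ± 0.215 FPKM and lost it without PAL replicate 1 or 2 (0.0599 and 0.0783). RTN3P1, from a reticulon gene of the endoplasmic reticulum, went from 1.89 ± 0.145 to 1.39 ± 0.122 FPKM and lost it without any library except control replicate 3 (0.0503 to 0.104). BANF1P3, from a DNA-bridging protein gene of the nuclear envelope, had 6, 8 and 7 reads in control and 6, 4 and 4 in PAL and lost it without PAL replicate 2 or 3 or control replicate 2 or 3 (0.0636 to 0.0893). AL031729.1, closest to TMA7, fell from 12.2, 9.14 and 13.1 FPKM to 7.08, 6.24 and 6.79, while TMA7 was not called.

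The rises were few, and several were at low levels. AC037487.3, of 112 bases, had 0, 0 and 2 reads in control and 3, 5 and 7 in PAL, and its call was lost without PAL replicate 2 or 3 or control replicate 1 or 2 (limma adjusted p of 0.0716 to 0.0829). AC025449.1, closest to the heterochromatin protein gene CBX3 at 78.4% identity, went from 1.196 ± 0.348 to 2.71 ± 0.606 FPKM. AC112184.1, closest to RBX1, a subunit of cullin ubiquitin ligases, went from 1.60 ± 0.297 to 2.68 ± 0.340 FPKM and lost its call without PAL replicate 1 (0.0543). PCNPP3 went from 1.11 ± 0.0375 to 1.70 ± 0.231 FPKM and lost it without PAL replicate 1 or control replicate 1 or 2 (0.0523 to 0.0596). Of all 44 called members, 16 had a library with under 10 reads and 5 changed by 1 or more on the log2 scale. In 16 of the 44 the call held in all alternatives that tested the member: the falls of HSP90AA2P, HSP90AB3P, TUFMP1, UBE2FP1, NAMPTP1, AHCTF1P1, EEF1A1P5, AC011497.2 and AL031729.1, 2 rises with RPL13P12 among them, and the falls of FTH1P3, RPL29P11, AC093591.3, AL021068.2 and AL031727.1. These last 5 passed through control alone, which favours a fall, and were not tested where 1 FPKM was asked of all 6 libraries, so that their calls held is no support. As TPM the call was lost for 6 members, AC016596.1, FAM3C2, FTH1P8, RPS3AP6, RTN3P1 and SERBP1P5, and with plain read totals for these and AC078817.1.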

How the data were processed

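Poly-A enriched RNA of A375 cells was sequenced in 6 libraries, 3 PAL and 3 control, with groups and numbers from the sample titles. The build is hg38, per the submitters' processing notes. Aligner, counter, strand use and the treatment of reads with several matches were not given in the sources used here. Per the file headers, the deposited table holds FPKM values per library beside each gene's length, biotype and position. Its 58735 genes have the same positions in GENCODE release 29. FPKM times gene length gave whole reads within 0.01 for 100% of values above 0. The library size behind the deposited FPKM was 0.980 to 0.984 of the plain total in control and 1.04 to 1.05 in PAL.

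Genes with at least 1 FPKM in at least 3 libraries were tested with limma 3.58.1 (R 4.3.3) on log2(FPKM + 1), two-sided, with a variance trend and Benjamini-Hochberg adjustment over all 12258 genes at 0.05. Fold changes on this scale understate changes of low genes. A parent is the gene named by the stem before the final P and number. Identity and best matches come from blastn 2.17.0 against GENCODE 29 transcripts, and windows of 50 bases from exact matches. The ratio of copy to parent is the difference of their log2(FPKM + 1), tested by an exact permutation over libraries.

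Named were the 10 highest members, up to 10 largest called rises and falls, the 5 highest and lowest ratios with both means at 2 FPKM or more, heat shock copies, the parents and hosts of these, and members beside the limit. Others that were named were chosen after their values were seen. The members and lists were chosen with earlier results of these data known. Alternatives varied pseudocount, filter, scaling, variance model, test, replicate block and libraries, and those without both libraries numbered 3 and with parents by sequence were added after seeing the data. The limma fit was tested on simulated data. A few genes and sequences that the rule names are not reported here.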

Additional observations from a re-analysis of the deposited data

How the results depend on the processing

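With 3 libraries a group and a median of 40.6 reads per member, most members' changes were measured with wide errors. Higher calls, 11, became 18 as TPM, 24 with plain read totals, 18 with quantile normalization, 6 among genes with a mean of at least 5 FPKM, 3 with no filter and 5 with voom on recovered reads. Lower calls, 33, became 13 with a mean of at least 5 FPKM and 15 with no filter. Without 1 library these counts ran from 9 to 12 and from 26 to 30. Without both libraries numbered 3, an alternative added after seeing the data, 21 of the 44 calls were kept. Pairs called in the same direction, 6, became 11 as TPM, 15 with plain read totals, 13 with quantile normalization, 3 with no filter, 2 among members overlapping no other gene and 10 with parents by sequence, also added later, and 5 to 7 without 1 library. Pairs called in opposite directions, 4, became 2 at 1 FPKM in all 6 libraries, 1 with a mean of at least 5 FPKM, 1 among members overlapping no other gene, 0 with no filter, 1 without a variance trend and 1 without both libraries numbered 3. Without 1 library they ran from 1 to 4, and only without control replicate 3 were there 4. Ratios that did not overlap, 36, became 20 with a mean of at least 5 FPKM, 52 to 66 without 1 library and 75 without both numbered 3, where fewer libraries make separation easier. The rank correlation between the changes of copy and parent, 0.177, was 0.325 over members with 50 reads or more, 0.246 without both numbered 3 and 0.101 to 0.248 without 1 library. HNRNPA1 turned to 0.0106 with plain read totals (limma adjusted p = 0.754) and 0.0575 with quantile normalization (0.179). Of the 44 called members, 28 lost their call in at least 1 of 18 alternatives and no named member of 62 reversed. Except where stated, the cause was not tested.

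The replicate numbers were not taken as a pairing. The deviations of same-numbered libraries correlated at -0.02, 0.03 and -0.04, so no shared deviation was seen. This cannot show whether such libraries were prepared together. With the replicate block, 9 members were called higher and 32 lower, 4 pairs in the same and 2 in opposite directions.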
